A study of Yarrowia lipolytica with 8 samples.

Results

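Alcohol dehydrogenases and fatty alcohol oxidases act on the alcohols that a yeast cell makes or meets. The values below describe the genes listed for these enzymes in *Yarrowia lipolytica*, an oleaginous yeast that grows on sugars, glycerol, alkanes and fats. The list held 9 loci, named ADH1 to ADH7, FADH and FAO1. A locus was kept when the annotation columns deposited with the expression values (KEGG Orthology, or the best protein match) named an alcohol or formaldehyde dehydrogenase or an alcohol oxidase. This kept 6 genes of the 6394 in the deposited tables: ADH1, ADH2, ADH3, ADH6, ADH7 and FADH. The other 3 listed loci had annotations that named none of these enzymes. They were left out of the counts, and their values are given separately.

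Zinc-dependent alcohol dehydrogenases interconvert alcohols and aldehydes with NAD(H) or NADP(H), so the same enzyme can make an alcohol from the acetaldehyde that pyruvate decarboxylase releases or oxidise one for use as a carbon source. In alkane-using yeasts a long-chain fatty alcohol is oxidised to a fatty aldehyde either by such a dehydrogenase or by a fatty alcohol oxidase, which passes the electrons to oxygen, and a fatty aldehyde dehydrogenase then makes the fatty acid. FADH belongs to the glutathione-dependent formaldehyde dehydrogenases, which oxidise the adduct of formaldehyde and glutathione. S-formylglutathione hydrolase and formate dehydrogenase carry the product on to formate and carbon dioxide.

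RNA was sequenced from strain ACA DC 50109 cultured in fermenters that were given glycerol and glucose together. The 4 groups of 2 replicates were the pO2-controlled culture after and before glycerol limitation, and the culture without pO2 control after and before glycerol limitation, where pO2 is the dissolved oxygen. All groups share the strain and the substrates supplied, and the study states that nitrogen was already limiting at each sampling. The samples after glycerol limitation come from a later time in the culture, and the study reports growth arrest then. Time and growth state therefore cannot be told apart from glycerol limitation. The labels say which culture was controlled but not the phase of the uncontrolled samples, which was taken from the study's supplementary heading. The study describes the replicates as biological. The labels do not say whether they came from separate fermenters, so the p-values measure only the spread between these samples. The values are FPKM, fragments scaled by gene length and by the mapped fragments each library held, so they are comparable between genes of a library. Summed over all genes they ran from 871797 (controlled, before limitation, replicate 2) to 1101126 (uncontrolled, before limitation, replicate 1). The same FPKM is therefore not the same share of the RNA in each library. In RNA from a whole culture, fewer cells expressing a gene and less of its RNA per cell cannot be told apart.

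The steps between low FPKM values gave a depth of about 5110000 to 5380000 fragments per library, and between 5901 and 6201 genes reached 1 FPKM in a library. Replicates of the controlled culture were closer to each other than those of the uncontrolled one. The SD of the log2 difference between replicates was taken over genes of at least 1000 fragments. It was 0.058 after and 0.051 before limitation with control, and 0.249 after and 0.284 before limitation without it. Whether the spread with control exceeded counting error was not tested. The small SEs there need not measure differences between fermenters. Each culture was deposited as a table of its own, so a difference in handling between the cultures cannot be told apart from pO2 control.

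The first comparison asks what followed glycerol limitation when pO2 was controlled. ADH3 fell steeply, ADH2 and FADH fell less, ADH7 rose and ADH1 rose slightly. Of the 6 genes, 2 rose, against 45.6% of all genes tested that rose, and 3 fell, against 36.0% that fell. A gene is said to have risen or fallen at a Benjamini-Hochberg adjusted p under 0.05 in limma on log2(FPKM + 1). ADH7 alone rose and ADH3 alone fell past the study's minimum of 2 on the log2 scale, against 9.52% and 4.29% of all genes. The median log2 fold change was -0.36 over the 6 genes and 0.13 over all genes tested.

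Without pO2 control, 4 of the 6 genes rose after limitation, against 48.9% of all genes, and 1 fell, against 21.5%. ADH6 and ADH7 rose past the minimum of 2 (11.3% of all genes), and none of the 6 fell past it (5.01%). The median was 1.56 over the 6 genes and 0.49 over all genes. It was 1.81 over the 6 genes with ADH1 and ADH7 set to the log2 of their fold over 3 fragments. That fold is taken without a pseudocount and so is on another scale. ADH1, ADH6 and ADH7 passed the filter on low values (1 FPKM or more in 2 or more of the libraries fitted) only through their libraries after limitation. Neither their count nor the median over the 6 genes supports anything, since these 3 genes had to differ. With either library after limitation left out, they were no longer tested, and the number of the 6 past the minimum was 1 (ADH2) without replicate 1 and 0 without replicate 2. Over all genes, 701 rose and 310 fell past the minimum with FPKM as deposited, and 486 rose and 497 fell after median-of-ratios scaling between libraries.

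Between the cultures before limitation, 5 of the 6 genes were higher with control, against 47.2% of all genes, and only ADH2 was lower, against 30.9%. ADH3, ADH6, ADH7 and FADH were higher past the minimum (14.4% of all genes) and none was lower past it (9.18%). The median was 3.24 over the 6 genes and 0.31 over all genes. It was 3.89 over the 6 genes with ADH1 and ADH7 set to the log2 of their fold over 3 fragments, again without a pseudocount. ADH1, ADH6 and ADH7 again passed the filter only through the higher group. They had to differ, so neither their count nor the median over the 6 genes supports anything. Without either of the controlled libraries, ADH6 and ADH7 were no longer tested and 2 of the 6 genes were past the minimum. Over all genes, 884 were higher and 565 lower past the minimum as deposited, and 712 higher and 715 lower after scaling.

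After limitation the cultures were closer. Of the 6 genes, 4 were higher with control, against 28.5% of all genes, and none was lower, against 21.5%. None was higher past the minimum (1.82% of all genes) and none lower past it (1.34%). The median was 0.89 over the 6 genes and 0.10 over all genes. These 4 comparisons share libraries: the same 2 uncontrolled libraries before limitation enter the second and the third, so low values there count in both.

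**Figure D1:**
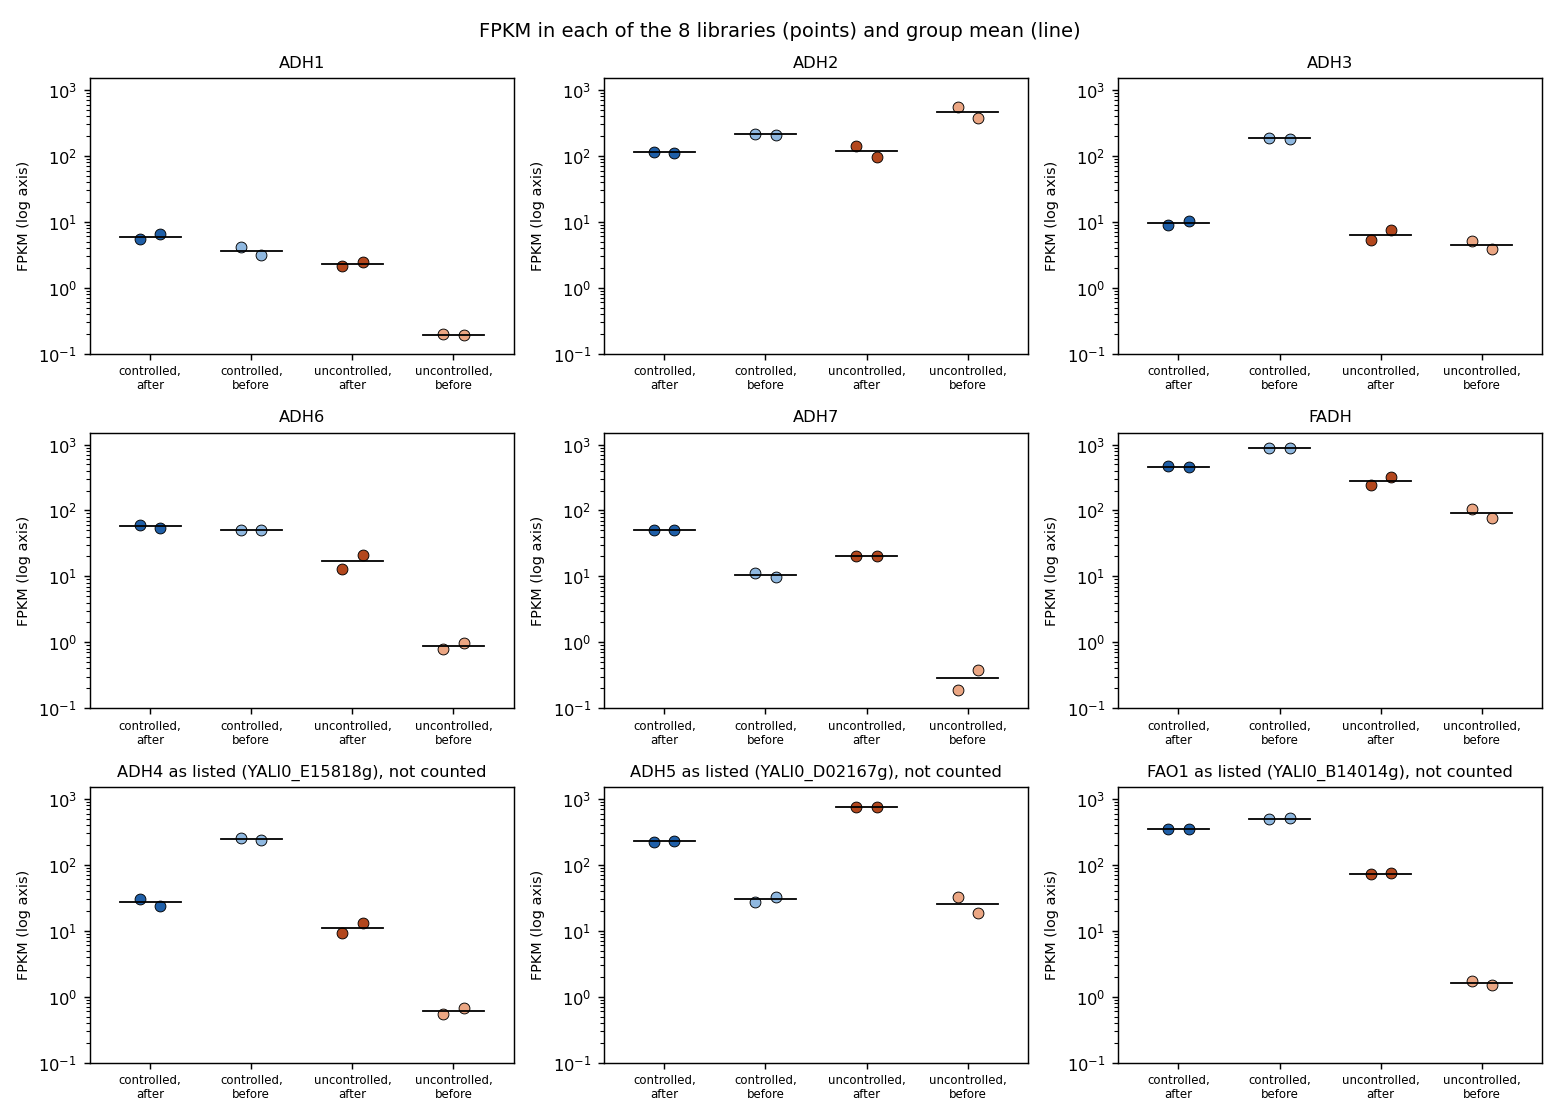
FPKM on a log axis in each of the 8 libraries (points) with the group mean (line), for the 6 genes in the upper 2 rows and the 3 listed loci left out of the counts in the lowest row. In the uncontrolled culture before limitation, ADH1, ADH6 and ADH7 lie below 1 FPKM while ADH2 has its highest values, 551 and 376 FPKM.

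The 6 genes did not share 1 pattern. Both libraries of the uncontrolled culture before limitation were the lowest of all 8 for 5 of the 6 genes (ADH1, ADH3, ADH6, ADH7 and FADH), against 39.1% of the 6278 genes tested over all libraries. They were the highest for ADH2, against 17.7% of genes. The highest group was the controlled culture after limitation for ADH1, ADH6 and ADH7 (20.2% of genes), and the controlled culture before limitation for ADH3 and FADH (24.9% of genes). None of the 6 had its highest values in both libraries of the uncontrolled culture after limitation (15.9% of genes).

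ADH2 (YALI0_E17787g) is annotated as a propanol-preferring alcohol dehydrogenase, a class that acts on short primary alcohols. It lies on the minus strand of chromosome E, at E:2099768-2100823 of the CLIB122 assembly. It had 115 and 111 FPKM after against 217 and 208 FPKM before limitation with control. Without control it had 144 and 97.3 FPKM after against 551 and 376 FPKM before. ADH2 was therefore the highest before limitation in either culture, and highest of all where pO2 was not controlled. After limitation the libraries of both cultures overlapped.

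ADH2 fell after limitation by 0.91 on the log2 scale with control (SE 0.043, limma adjusted p = 5.5e-06) and by 1.94 without it (SE 0.242, limma adjusted p = 0.00034). The fall was larger without control: the difference of the responses, controlled minus uncontrolled, was 1.03 (SE 0.301, limma adjusted p = 0.016). It lost its call without the second controlled library before limitation (1.00) or the second uncontrolled one after it (0.75). Before limitation ADH2 was lower with control, with a log2 fold change of -1.10 (SE 0.196, limma adjusted p = 0.0056). After limitation the difference was -0.07 with a 95% interval from -0.54 to 0.41, which does not show that the levels were alike. That value rested on the 2 uncontrolled libraries: it was 0.21 without the first of them and -0.35 without the second, and passed the test with opposite signs. Without control, the fall of ADH2 passed the minimum of 2 after scaling (-2.42), without the second library before limitation (-2.21) and without the first after it (-2.22).

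ADH3 (YALI0_A16379g, plus strand, A:1675359-1676408) has the same annotation as ADH2. It had 9.11 and 10.4 FPKM after against 187 and 181 FPKM before limitation with control. Without control it had 5.26 and 7.48 FPKM after against 5.09 and 3.87 FPKM before. The controlled culture before limitation stood far above the other 3 groups, which all lay at or under 10.4 FPKM.

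With control ADH3 fell by 4.11 on the log2 scale after limitation (SE 0.081, limma adjusted p = 1.5e-07), the largest change among the 6 genes in that comparison. Without control the change was 0.42 with a 95% interval from -0.24 to 1.08 (limma adjusted p = 0.22). The responses differed by -4.53 (SE 0.271, limma adjusted p = 4.3e-06). ADH3 was higher with control before limitation by 5.09 (SE 0.146, limma adjusted p = 2.8e-05). After limitation it was 0.56 with a 95% interval from -0.002 to 1.12 (limma adjusted p = 0.088). That difference passed the test when all 8 libraries were fitted together (limma adjusted p = 0.041) and, at 0.78, without the second uncontrolled library (limma adjusted p = 0.011).

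ADH6 (YALI0_A15147g, plus strand, A:1560639-1561685) is annotated like ADH2 and ADH3. It had 60.5 and 53.7 FPKM after against 49.95 and 50.01 FPKM before limitation with control. Without control it had 13.1 and 21.2 FPKM after against 0.78 and 0.97 FPKM before, which is about 4 and 5 fragments. The libraries were ordered by culture first, both controlled groups lying above both uncontrolled ones.

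The fitted rise of ADH6 after limitation without control was 3.24 on the log2 scale (SE 0.302, limma adjusted p = 8.8e-05), or 4.11 with a pseudocount of 0.1. In that comparison, and between the cultures before limitation, ADH6 passed the filter only through its higher group. It had to differ in both, so these p-values support nothing. With control its value was 0.19 (SE 0.075, limma adjusted p = 0.06), which did not pass the test, and passed it at 0.27 without the second library after limitation. The responses differed by -3.05 (SE 0.303, limma adjusted p = 6e-05), a value that takes in the rise without control. ADH6 was higher with control by 4.77 before limitation (SE 0.139, limma adjusted p = 2.9e-05) and by 1.71 after it (SE 0.235, limma adjusted p = 0.0033), or 2.04 without the second uncontrolled library.

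ADH7 (YALI0_E07766g, minus strand, E:897661-898936) was matched in KEGG to the entry of ADH3 rather than to one of its own, so its substrate class rests on similarity. It had 50.7 and 50.5 FPKM after against 11.2 and 9.71 FPKM before limitation with control. Without control it had 20.3 and 20.4 FPKM after, against 0.19 and 0.38 FPKM before, at or under the level of 3 fragments. ADH7 was higher after limitation in each culture and higher with control in each phase, with no overlap between groups.

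Set against the level of 3 fragments per library, ADH7 was 42.8-fold higher after than before limitation without control. By the same measure it was 22.0-fold higher with than without control before limitation. ADH7 passed the filter in both of these comparisons only through its higher group, so it had to differ there. The fitted log2 fold changes of such a gene depend on the pseudocount. They were 2.17 with control (SE 0.099, limma adjusted p = 4.6e-06) and 4.06 without it (SE 0.255, limma adjusted p = 1.6e-05) for after against before, and 3.16 before (SE 0.189, limma adjusted p = 0.00016) and 1.27 after limitation (SE 0.109, limma adjusted p = 0.00092) for controlled against uncontrolled. The responses differed by -1.89 (SE 0.222, limma adjusted p = 0.00015), and by -3.52 with a pseudocount of 0.1.

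ADH1 (YALI0_D25630g, minus strand, D:3413441-3414490), a further gene of the propanol-preferring class, was the lowest of the 6 in the controlled culture and after limitation without control. It had 5.50 and 6.43 FPKM after against 4.12 and 3.16 FPKM before limitation with control. Without control it had 2.14 and 2.49 FPKM after against 0.20 and 0.19 FPKM before, about 1 fragment in each library. In every group fewer than 10% of genes had a lower mean than ADH1.

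Against the level of 3 fragments, ADH1 was 3.96-fold higher after than before limitation without control, and 6.23-fold higher with than without control before limitation. The fitted log2 fold changes were 1.47 (SE 0.292, limma adjusted p = 0.0031) and 1.95 (SE 0.209, limma adjusted p = 0.00094), and 3.03 and 3.65 with a pseudocount of 0.1. In both comparisons ADH1 passed the filter only through its higher group and had to differ. With control ADH1 rose by 0.59 (SE 0.184, limma adjusted p = 0.025), a call that was lost without the second library before limitation (0.44) or the first (0.69) or second (0.49) library after it. After limitation it was higher with control by 1.07 (SE 0.221, limma adjusted p = 0.013), lost without the first (1.17) or the second (0.97) controlled library. The difference of the responses was -0.88 (SE 0.305, limma adjusted p = 0.033), at values from -1.03 to -0.73 with a library left out and at -2.32 with a pseudocount of 0.1. It kept its call only without the second controlled library before or the first uncontrolled library after limitation.

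FADH (YALI0_F09603g, minus strand, F:1315744-1316889) is annotated as S-(hydroxymethyl)glutathione dehydrogenase, which also acts as an alcohol dehydrogenase. It had 466 and 454 FPKM after against 899.9 and 889 FPKM before limitation with control. Without control it had 245 and 320.1 FPKM after against 103 and 77.0 FPKM before. The phase with the higher level was thus before limitation with control and after limitation without it, and the libraries of the 4 groups did not overlap.

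FADH fell by 0.96 on the log2 scale with control (SE 0.027, limma adjusted p = 6e-07) and rose by 1.64 without it (SE 0.199, limma adjusted p = 0.0003). It was the only one of the 6 genes that passed the test in opposite directions in the cultures, and the responses differed by -2.60 (SE 0.226, limma adjusted p = 2.9e-05). FADH was higher with control by 3.31 before limitation (SE 0.156, limma adjusted p = 8.2e-05) and by 0.71 after it (SE 0.134, limma adjusted p = 0.0093). After median-of-ratios scaling all these directions held.

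**Figure D2:**
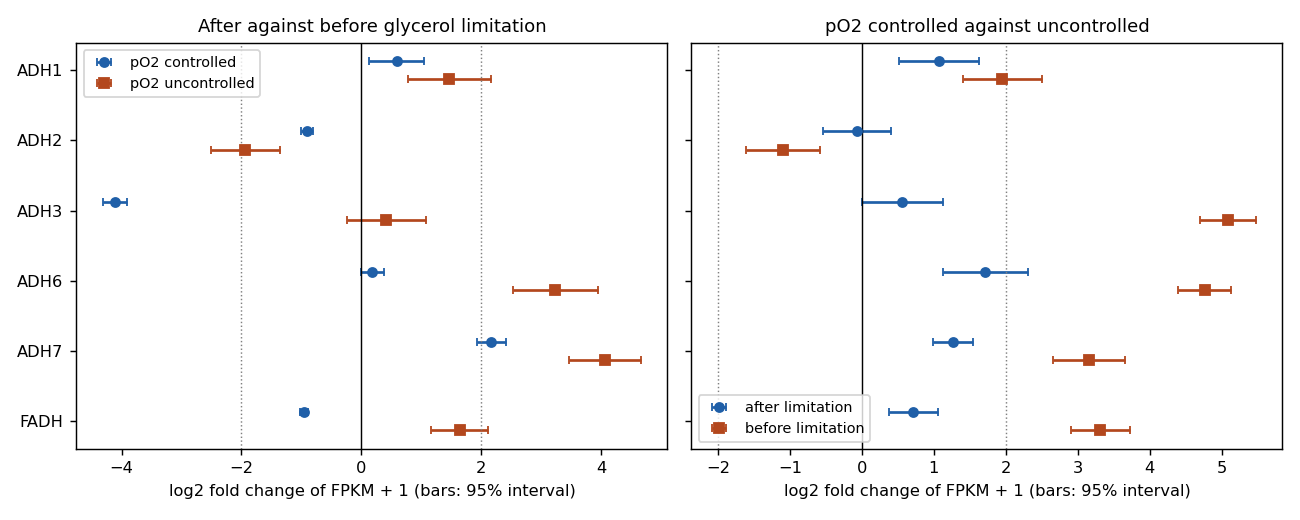
Log2 fold change of FPKM + 1 with its 95% interval in limma for each of the 6 genes, after against before limitation in each culture (left) and controlled against uncontrolled in each phase (right). Dotted lines mark the minimum of 2 in each direction, and FADH lies at -0.96 with and 1.64 without control on the left.

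In the test of the responses themselves, controlled minus uncontrolled, 5 of the 6 genes were lower, against 38.1% of all genes, and ADH2 was higher, against 29.1%. Past the minimum of 2, ADH3, ADH6 and FADH were lower (11.8% of all genes) and none was higher (6.85%). The median was -2.24 over the 6 genes and -0.20 over all genes. For ADH1, ADH6 and ADH7 the rise without control that enters this difference began below 1 FPKM. Its direction was fixed by the filter in that comparison, so neither their count nor the median supports anything. Over all genes, 430 were higher and 742 lower past the minimum as deposited, and 577 higher and 627 lower after scaling.

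The make-up of the summed FPKM of the 6 genes showed which of them carried most of the RNA. FADH held 66.0% and 66.2% after and 65.7% and 66.3% before limitation with control. Without control it held 57.0% and 68.3% after and 15.6% and 16.8% before. ADH2 held 83.4% and 82.0% in the uncontrolled culture before limitation, against 33.5% and 20.8% after it.

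With control ADH2 held 15.5% to 16.3% in all 4 libraries. ADH3 held 13.7% and 13.5% in the controlled culture before limitation and at most 1.60% in every other library. The summed FPKM of the 6 genes was 707 and 686 after against 1369 and 1341 before limitation with control. Without control it was 430 and 469 after against 661 and 458 before, so that those libraries overlapped. Shares and sums leave out the 3 other listed loci. ADH5 as listed alone had 763 and 767 FPKM in the uncontrolled culture after limitation. FAO1 as listed had 493 and 515 FPKM in the controlled culture before limitation.

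**Figure D3:**
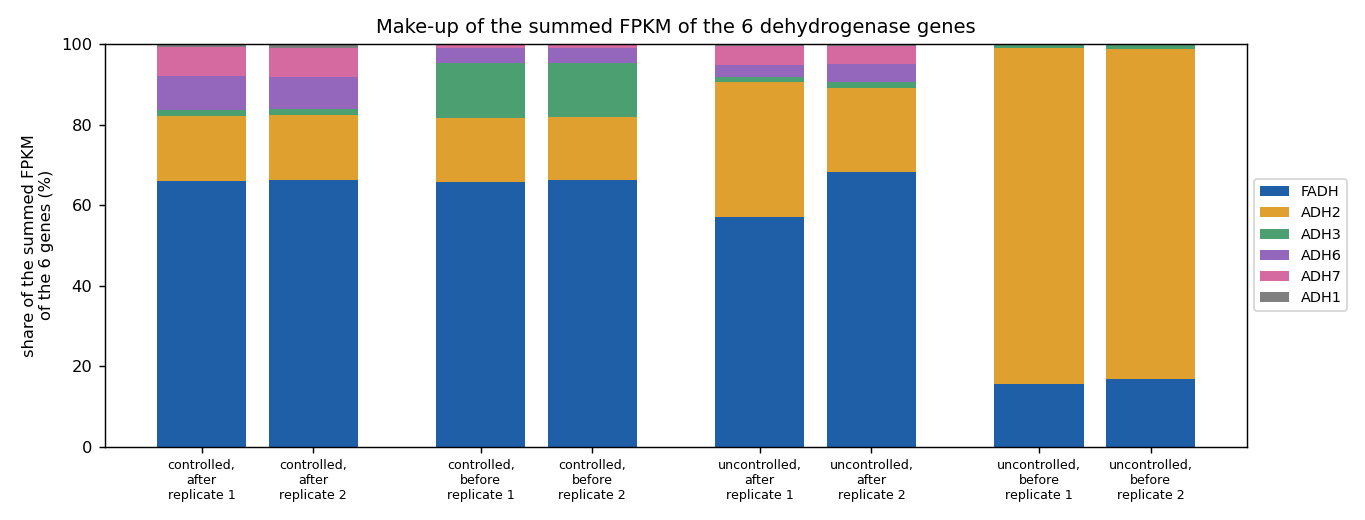
Share of each gene in the summed FPKM of the 6 genes, in percent, for each of the 8 libraries. The 3 listed loci left out of the counts are not in the sum. FADH makes up 65.7% to 66.3% in the controlled libraries, and ADH2 82.0% and 83.4% in the uncontrolled libraries before limitation.

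The 3 listed loci left out of the counts had clear changes of their own. YALI0_B14014g, listed as the fatty alcohol oxidase FAO1, was matched to a choline dehydrogenase of another fungus, an enzyme that also acts on CH-OH groups. It had 347 and 345 FPKM after against 493 and 515 FPKM before limitation with control, and 71.5 and 75.6 FPKM after against 1.76 and 1.52 FPKM before without control. It fell by 0.54 with control and rose by 4.82 without it, with limma adjusted p = 1.6e-05 and 4.1e-06. It was higher with control by 7.58 before and 2.22 after limitation, and the responses differed by -5.36 (limma adjusted p = 9.1e-08).

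YALI0_E15818g, listed as ADH4, was annotated as a hydroxyacid-oxoacid transhydrogenase, an enzyme that moves hydrogen between a hydroxy acid and an oxo acid. It had 30.4 and 23.7 FPKM after against 252 and 242 FPKM before limitation with control, and 9.13 and 13.2 FPKM after against 0.55 and 0.68 FPKM before without it. It fell by 3.15 with control (limma adjusted p = 1.7e-06). Its fitted rise without control was 2.89 (limma adjusted p = 0.00012), or 3.96 with a pseudocount of 0.1. Before limitation without control it had about 4 and 5 fragments. In that comparison, and between the cultures before limitation, it passed the filter only through its higher group and had to differ. It was higher with control by 7.26 before and by 1.22 after limitation, and the responses differed by -6.05 (limma adjusted p = 1.3e-06). FAO1 as listed, like FADH, moved in opposite directions in the 2 cultures. ADH4 as listed did so too, but the direction of its rise without control was fixed by the filter.

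YALI0_D02167g, listed as ADH5, had an alkaline phosphatase D of another fungus as its first KEGG match, at an E-value of 1e-32. Its gene ontology function terms were those of ADH6 and ADH7, so the annotation does not show that YALI0_D02167g is no alcohol dehydrogenase. This locus had 226 and 233 FPKM after against 27.4 and 33.0 FPKM before limitation with control, and 763 and 767 FPKM after against 32.8 and 18.6 FPKM before without it. It had 226 and 233 FPKM after against 27.4 and 33.0 FPKM before limitation with control, and 763 and 767 FPKM after against 32.8 and 18.6 FPKM before without it. It was higher after limitation in both cultures, by 2.89 with control (limma adjusted p = 9.8e-07) and 4.90 without it (limma adjusted p = 6.5e-06). After limitation it was lower with than without control, at -1.73 (limma adjusted p = 0.00013), where none of the 6 genes passed the test as lower. Its libraries before limitation overlapped between the cultures, at 0.28 (limma adjusted p = 0.43). Counted over all 9 listed loci, 4 were past the minimum in either direction after limitation with control (13.8% of all genes) and 5 without control (16.3%). Between the cultures 6 were past it before limitation (23.5%) and 1 after it (3.16%), and 6 for the difference of the responses (18.7%). Without control, and between the cultures before limitation, ADH4 as listed, ADH6 and ADH7 passed the filter only through their higher group. These loci had to differ there, so neither count supports anything. The count for the difference of the responses takes in the rises of ADH4 as listed and ADH6, so it supports nothing either.

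No further gene had an own KEGG entry in the alcohol dehydrogenase and alcohol oxidase classes searched. Genes matched only to the entry of another gene, as ADH7 was, were not searched for, so the family may hold more genes. The enzymes around these steps were followed next. Aldehyde dehydrogenases, which oxidise the aldehydes that alcohol dehydrogenases make, had 6 genes with an own KEGG entry. With control 4 of them rose and 2 fell after limitation, against 45.6% and 36.0% of all genes, with a median of 0.93 against 0.13 over all genes. Without control 6 of 6 rose, against 48.9% of all genes, but YALI0_C03025g passed the filter there only through its libraries after limitation and had to rise. The median without control was 1.89, against 0.49 over all genes. It was 2.26 with that gene at the log2 of its fold over 3 fragments, taken without a pseudocount. YALI0_F04444g had 321.0 and 321 FPKM after against 1315 and 1320 FPKM before limitation with control, and 112 and 124 FPKM after against 3.0 and 3.48 FPKM before without it. It fell by 2.03 with control and rose by 4.81 without it. It was higher with control by 8.28 before limitation (limma adjusted p = 1.3e-05).

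YALI0_D07942g, a second NAD(P)+ aldehyde dehydrogenase, followed the same directions. It had 259 and 275 FPKM after against 704 and 715 FPKM before limitation with control, and 145 and 194 FPKM after against 6.58 and 6.24 FPKM before without it. It fell by 1.41 with control and rose by 4.51 without it, and was higher with control by 6.58 before limitation. YALI0_C03025g differed, having 21.3 and 19.6 FPKM after limitation with control and at most 1.73 FPKM in the other libraries. It rose by 3.50 with control (limma adjusted p = 4.7e-06).

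The 4 loci listed as the fatty aldehyde dehydrogenases HFD1 to HFD4, of which 2 are also among these 6, all rose after limitation in both cultures, against 45.6% of all genes with and 48.9% without control. Their medians were 1.07 with and 2.09 without control, against 0.13 and 0.49 over all genes. YALI0_A17875g had 44.5 and 41.3 FPKM after against 10.2 and 7.07 FPKM before limitation with control, and 4.01 and 6.55 FPKM after against 0.76 and 1.00 FPKM before without it. It rose by 2.20 with control and by 1.71 without it. YALI0_E15400g rose by 2.79 and YALI0_F23793g by 2.46 without control. Between the cultures before limitation, YALI0_A17875g, YALI0_E15400g and YALI0_F23793g were higher with control, by 2.34, 3.06 and 2.56.

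Of the enzymes that act after FADH, the S-formylglutathione hydrolase gene YALI0_C20405g moved as FADH did. It had 301 and 308 FPKM after against 539 and 516 FPKM before limitation with control, and 163 and 172 FPKM after against 59.4 and 47.8 FPKM before without it. It fell by 0.79 with control and rose by 1.63 without it, and the responses differed by -2.42 (SE 0.154, limma adjusted p = 5.6e-06). Before limitation it was higher with control by 3.28.

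The same list held 8 genes annotated as formate dehydrogenase, near copies between which reads may have been split. Over the 9 genes of the list, 8 were tested with control, of which 3 rose and 4 fell after limitation, against 45.6% and 36.0% of all genes. All 9 were tested without control, of which 8 rose and none fell, against 48.9% and 21.5%. YALI0_B22506g and YALI0_C14344g passed the filter without control only through their libraries after limitation, so these 2 of the 8 had to rise. YALI0_C14344g lies outside the rule for named genes and was named after its values were seen. YALI0_B22506g had 161 and 156 FPKM after against 6.23 and 5.49 FPKM before limitation with control, and 129.3 and 154 FPKM after against 0.93 and 0.55 FPKM before without it. It rose by 4.54 with control (limma adjusted p = 1.3e-07) and, as a gene kept by the filter only through its higher group, by 6.36 without it (limma adjusted p = 2.3e-06). YALI0_E14256g rose by 2.34 with control, and YALI0_F13937g fell by 2.40 with control and was lower with than without control after limitation, at -2.21, where its uncontrolled replicates were 40.9 and 11.98 FPKM.

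Pyruvate decarboxylase, which makes the acetaldehyde that an alcohol dehydrogenase can reduce to ethanol, had 1 gene with an own KEGG entry, YALI0_D10131g. It had 143 and 143 FPKM after against 711 and 734 FPKM before limitation with control, and 239 and 220.0 FPKM after against 4480 and 3340 FPKM before without it. It fell by 2.33 with control (limma adjusted p = 4.2e-08) and by 4.07 without it (limma adjusted p = 3.4e-06). Before limitation it was lower with control, at -2.42. Its group order was that of ADH2 for the 2 highest groups, uncontrolled before limitation and then controlled before limitation.

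**Figure D4:**
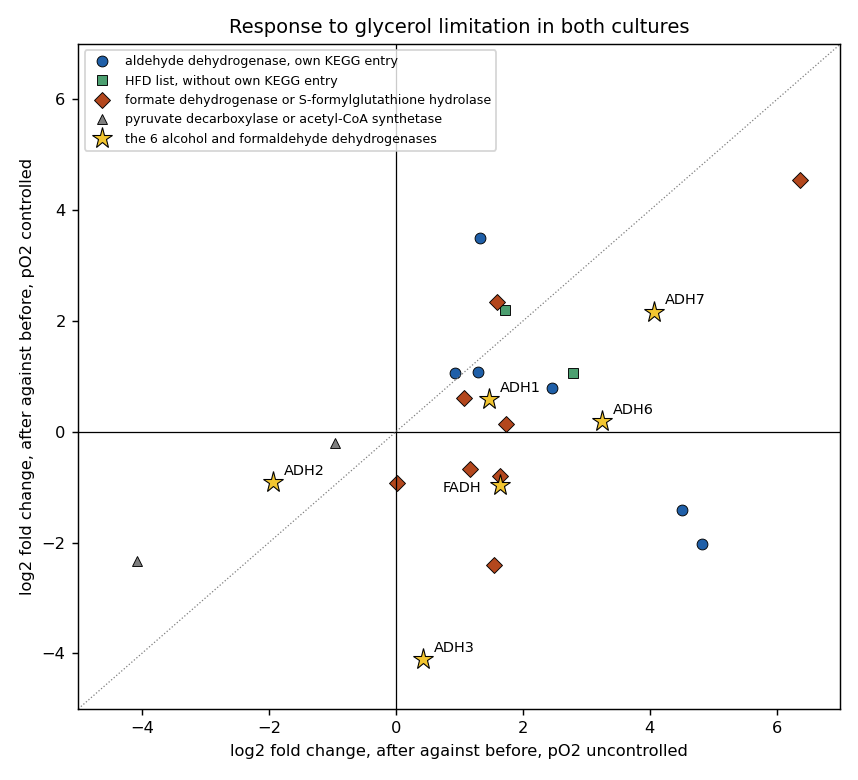
Log2 fold change after against before limitation without pO2 control (horizontal) and with it (vertical), for the 6 genes (stars) and the genes of the pathway lists tested in both cultures. The dotted line marks equal responses, and ADH2 and pyruvate decarboxylase (-4.07, -2.33) lie where both values are negative.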

How the data were processed

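Total RNA was sequenced from 8 libraries, 2 replicates in each of 4 groups. The authors mapped paired-end reads to the CLIB122 assembly with TopHat2 after FastQC and deposited FPKM values from Cufflinks, not pooled. Tool versions and the handling of reads shared by near copies, such as the alcohol dehydrogenase paralogs, are not given in the sources used here. Genes missing from the controlled (23) or uncontrolled (8) table were taken as 0. FPKM is scaled within each library, and values were compared across the tables without further scaling, except in the median-of-ratios alternative. Coordinates are the gene starts and ends of the deposited tables, and 0 value columns had no sample.

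log2(FPKM + 1) was fitted with limma 3.58.1 in R 4.3.3 (empirical Bayes with a variance trend) on the 4 libraries of each comparison, and on 8 for the difference of the responses, for genes that reached 1 FPKM in 2 or more of them. Benjamini-Hochberg adjustment ran over all genes tested. The scripts were tested on simulated data. With 2 replicates, the smallest two-sided exact permutation p is 0.333. Fragments were derived from the steps of low FPKM values with gene length reduced by 50 bp, and 92.4% to 97.6% of the values used lay within 0.15 of a whole number. A level of 3 fragments served as floor. It concerns counting error only and need not cover all of it at counts this low. Folds set against it are therefore not strict lower bounds.

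Members, lists and tests were chosen with earlier results of these data known. The named genes are the listed loci, and the pathway genes past the minimum of 2, at most 3 per list and comparison. Alternatives were another pseudocount (0.1), filters, scaling, a replicate block, other fold change minimums, all 8 libraries in the fit, no variance trend, each library left out and all 9 listed loci.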

Additional observations from a re-analysis of the deposited data

Results flagged for a closer look

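The response to glycerol limitation differed between the cultures for each of the 6 genes by the interaction test in limma (controlled minus uncontrolled, adjusted p under 0.05, 2 replicates per group), but for ADH1 and ADH2 the call depended on single libraries. The difference was -4.53 on the log2 scale for ADH3 and -2.60 for FADH. ADH3 fell with control, and FADH fell with and rose without control. For ADH6, which rose without control from under 1 FPKM, the difference was -3.05. It was -1.89 for ADH7 and -0.88 for ADH1, both near 0 FPKM in the uncontrolled culture before limitation, and 1.03 for ADH2, which fell in both cultures. The rises of ADH1, ADH6 and ADH7 without control had a direction fixed by the filter, so their differences support nothing by themselves. The call of ADH1 was kept in 2 of 8 fits with a library left out and lost with the replicate number as a block (limma adjusted p = 0.05), and that of ADH2 was lost in 2 of the 8. Of all genes tested, 38.1% were lower and 29.1% higher in the same test, so such a difference was common in these libraries.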

How the results depend on the processing

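Over all genes, calls past the minimum of 2 numbered 859 after limitation with control, 1011 without it, 1449 between the cultures before limitation, 196 after it and 1172 for the responses. With a log2 minimum of 1 they were 2187, 2827, 3166, 899 and 2865, and with none 5075, 4350, 4808, 3104 and 4219, in the same order. With a library left out they ranged from 823 to 860, 869 to 1093, 1354 to 1458, 151 to 227 and 1145 to 1200. Of the single-gene values under the alternatives, 471 kept their direction and side of the threshold, 15 lost and 5 gained significance, and 3 reversed. The reversals were of values that had not passed the test, ADH5 as listed between the cultures before limitation (-0.029 after scaling, -0.12 to 0.67 with a library left out) and ADH2 after limitation (-0.35 to 0.21 with a library left out). With a filter of FPKM of at least 1 in every library, fewer genes were tested, and 0 of the 6 were past the minimum after limitation without control. With the replicate number as a block (replicate block), calls numbered 859, 1011, 1449, 197 and 1172, and only the response difference of ADH1 lost its call among the 6 genes (-0.88, limma adjusted p = 0.05). Correlations of the deviations of same-numbered replicates were -0.055 to 0.053. Counting error alone can hold such values near 0, so they do not show whether same-numbered replicates shared a fermenter. The cause of the other changes was not tested. Depth limits ADH1, ADH6, ADH7 and ADH4 as listed, which had at most 5 fragments per library in the uncontrolled culture before limitation.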

Other observations

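The genes whose log2 values over the 8 libraries were most like those of each member are a description, since the libraries form 4 pairs of replicates. For ADH6 they included YALI0_E32901g, annotated as a lactate transporter (Pearson's r = 0.999 over 8 libraries). For FADH they were YALI0_C17061g, annotated as a poly(ADP-ribose) polymerase, and YALI0_E14014g, annotated as exonuclease 1, both with r = 0.999. For ADH3 the nearest was YALI0_B19580g, annotated as dipeptidyl-peptidase III (r = 0.998), and for ADH2 YALI0_B14355g, matched to an adenylate cyclase (r = 0.989).

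Among the genes next to the 6 members on their chromosomes, YALI0_F09625g, annotated as dephospho-CoA kinase and 2335 bp from FADH, was the only one tested that was past the minimum of 2. It rose by 2.01 after limitation without control (limma adjusted p = 6.9e-05) and was higher with control before limitation by 2.85 (limma adjusted p = 3.7e-05). With control its change after limitation was 0.05 (limma adjusted p = 0.32), where FADH fell by 0.96.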
